A study of Mus musculus with 10 samples.

Results

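The 10 genes described here mark dendritic cells, the antigen-presenting cells that start T cell responses, and were taken as a given list by gene symbol from the 19505 genes named on the array. The list holds 6 genes of conventional dendritic cells (Flt3, Clec9a, Batf3, Zbtb46, Itgax and Cd209a), 1 gene of plasmacytoid dendritic cells (Siglech) and 3 genes of mature dendritic cells (Fscn1, Cd80 and Cd86). All 10 members were measured, each by 1 probe set. The samples were whole colon of wild-type C57BL/6 mice in which 3% dextran sulfate sodium (DSS, which injures the colonic lining) in the drinking water and intraperitoneal anti-PD1 antibody caused colitis. In the 5 ECP samples the mice had also been given donor cells treated by ECP (extracorporeal photopheresis, in which white blood cells meet a light-activated drug and UVA outside the body). In the 5 control samples the mice had colitis alone, so both groups carry DSS and anti-PD1, and no mouse without colitis was part of the comparison. The comparison asks how the transfer of ECP-treated cells bears on dendritic cell transcripts in the inflamed colon. Whether the 10 arrays come from 10 mice is not in the labels, and p-values then reflect only sample-to-sample spread, which may be technical. The number of arrays limits the precision.

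Conventional dendritic cells develop from bone marrow precursors under the growth factor Flt3 ligand. A type 1 branch depends on Batf3 and Irf8 and presents antigen from dead cells to CD8 T cells, and a type 2 branch depends on Irf4 and primes CD4 T cells. Plasmacytoid dendritic cells make type I interferon. On maturation, dendritic cells raise the costimulatory ligands CD80 and CD86 and the actin-bundling protein fascin and move to lymphoid tissue. In the gut they sit in the lamina propria and in lymphoid follicles. Several of these genes are not private to dendritic cells. For example, macrophages also use Itgax, and macrophages and B cells also use Cd86. The part of other cells in the values was not tested for any member, Fscn1 included. In whole tissue, fewer cells of a type and less RNA per cell cannot be told apart, and donor transcripts cannot be told apart from those of the host.

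Values are log2 RMA intensities, a scale on which 1 unit is a factor of 2, and differences are ECP minus control on that scale. The tissue matched its label, with the mean of 10 colon epithelium markers at 11.83 to 12.10 and that of 6 colon muscle markers at 10.54 to 11.78 on the arrays. Some arrays stood apart in markers of other cells. The mean of 9 B cell markers was 8.46 in control replicate 4 and 6.99 in ECP replicate 1, against 5.97 to 6.32 on the other arrays. The mean of 3 markers of follicular dendritic cells, the stromal cells of lymphoid follicles, was likewise highest in these arrays (8.16 and 7.57, others 6.62 to 7.09). That list held Fdcsp, Cxcl13, Madcam1 and Tnfsf11, of which 3 were measured, and not all of them are private to these cells. The mean of 9 pancreatic acinar markers was raised in 3 controls (replicate 1 at 10.42, replicate 4 at 12.27, replicate 5 at 6.46) and lay at 5.32 to 5.63 on the other 7 arrays. The difference of each member is therefore also given without ECP replicate 1 and control replicate 4, and without control replicates 1, 4 and 5.

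None of the 10 dendritic cell genes differed between the groups past the threshold (limma adjusted p under 0.05), as was the case for 0% of all 19505 genes. With ECP, 8 of the 10 members had the higher mean and 2 the lower, and their median difference was 0.128, whereas 53.3% of all genes were higher with a median of 0.008. At an unadjusted p under 0.05, 0 members were counted beside 5.08% of all genes. Members whose ECP and control arrays did not overlap also numbered 0, beside 1.22% of all genes. An exact two-sided permutation test over the arrays gave p = 0.190 to 0.881 for the members, where 0.00794 is the smallest of 252 arrangements. By subset, the 6 conventional genes were each higher (median difference 0.157), the plasmacytoid gene Siglech was at -0.02, and of the 3 mature genes 2 were higher and 1 lower (median 0.127). Of the conventional genes 5 were higher and 1 lower without ECP replicate 1, and likewise without control replicate 1. Other marker lists differed in that direction or in the opposite one, each with 0 genes past the threshold. Lower with ECP were all 9 B cell markers (median -0.31), 6 of 7 T cell markers (-0.129) and all 9 pancreatic acinar markers (-2.571). Without control replicate 4 the T cell markers were 6 higher and 1 lower (0.184). The 6 colon muscle markers were all higher with ECP (median 0.293), or 4 higher and 2 lower without control replicates 1 and 4 (0.03). Of the 11 macrophage and monocyte markers 9 were higher (median 0.085), or 4 without ECP replicate 1 (-0.071) and 4 without control replicate 1 (-0.062). The part of these tissue and cell markers in the member values was not tested, nor was a difference between subsets. Adjusted p-values of the 10 genes were 0.998 to 1.000 (limma). The median difference of the members was 0.036 without control replicate 1 and 0.065 without ECP replicate 1, with 7 members higher and 3 lower in each case.

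**Figure D1:**
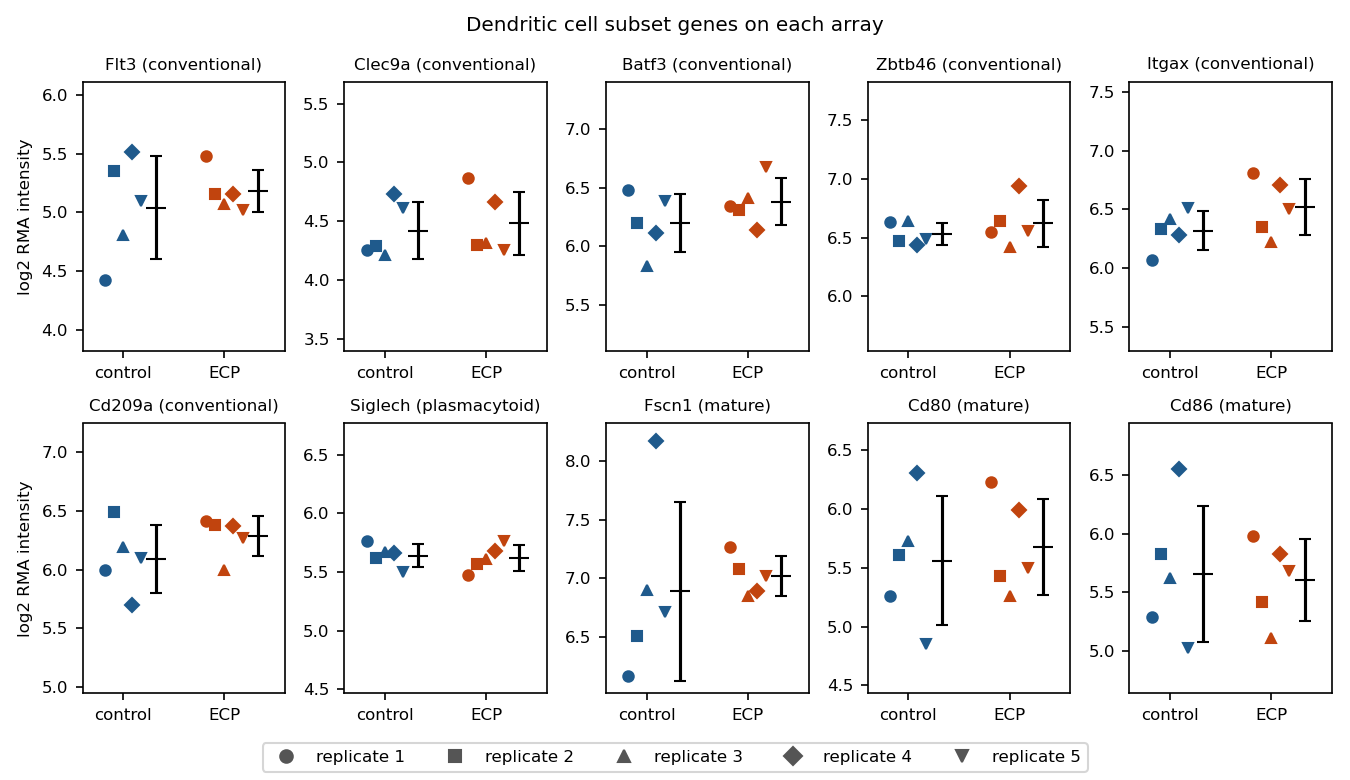
Log2 RMA intensity of the 10 dendritic cell genes on each array (points, shape by replicate number; blue, control; orange, ECP) with the group mean and SD (n = 5) beside them; every panel spans the same length of the log2 scale. The groups overlap in all 10 panels, and control replicate 4 is the highest array for Flt3, Fscn1, Cd80 and Cd86.

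Flt3 codes for the receptor tyrosine kinase that takes up the Flt3 ligand signal on dendritic cell precursors and conventional dendritic cells. Its level was 5.48, 5.16, 5.07, 5.16 and 5.02 in ECP replicates 1 to 5, and 4.42, 5.35, 4.81, 5.51 and 5.10 in control replicates 1 to 5. The ECP arrays lay inside the range of the controls, which held both the lowest array (replicate 1) and the highest (replicate 4). Group means were 5.18 ± 0.18 (SD, n = 5) and 5.04 ± 0.44 (SD, n = 5), a difference of 0.14 (SE 0.18, 95% interval -0.26 to 0.53). Without control replicate 1 it was -0.02, and without control replicate 4 it was 0.26.

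Clec9a, a C-type lectin of type 1 conventional dendritic cells that binds actin exposed on dead cells, was at 4.87, 4.30, 4.31, 4.66 and 4.25 in the ECP arrays. In the control arrays it was at 4.25, 4.29, 4.21, 4.73 and 4.61. Both groups held a high set and a low set of arrays at much the same levels, with ECP replicates 1 and 4 and control replicates 4 and 5 on the high side. The difference was 0.06 (SE 0.14), which spans 0.84-fold to 1.29-fold at 95%, and -0.04 without ECP replicate 1. By mean level Clec9a was at percentile 14.4 of all genes and Flt3 at percentile 23.1. Whether such low levels lay above background was not tested.

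Batf3, the AP-1 family transcription factor needed for the type 1 branch, was at 6.34, 6.31, 6.41, 6.14 and 6.68 with ECP and at 6.48, 6.20, 5.83, 6.11 and 6.39 in the control arrays. The highest array was ECP replicate 5 and the lowest control replicate 3, and the other 8 arrays intermingled. Means were 6.38 ± 0.20 and 6.20 ± 0.25 (SD, n = 5 each), a difference of 0.18 (SE 0.13) that was 0.08 without control replicate 3.

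Zbtb46, a zinc finger transcription factor that among mononuclear phagocytes marks conventional dendritic cells, was the steadiest of the 6. It was at 6.55, 6.64, 6.42, 6.94 and 6.56 with ECP and at 6.63, 6.47, 6.64, 6.44 and 6.49 in the control arrays. Apart from ECP replicate 4 the arrays lay between 6.42 and 6.64. The difference of 0.09 (SE 0.09) was 0.01 without that array.

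Itgax codes for CD11c, the integrin chain most used to label dendritic cells, which macrophages also carry. It showed the largest difference of the members. Its level was 6.81, 6.35, 6.22, 6.71 and 6.50 with ECP and 6.07, 6.33, 6.42, 6.28 and 6.51 in the control arrays. ECP replicates 1 and 4 lay above every control array and the other 3 ECP arrays among the controls. Means were 6.52 ± 0.24 and 6.32 ± 0.17 (SD, n = 5 each), a difference of 0.20 (SE 0.12, 95% interval -0.07 to 0.46). It was 0.12 without ECP replicate 1, which also had the highest mean of 11 macrophage and monocyte markers (8.64, against 7.51 to 8.51 on the other arrays). The part of macrophages in the Itgax difference was not tested.

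Cd209a, a lectin of the DC-SIGN family found on type 2 and monocyte-derived dendritic cells, was at 6.41, 6.38, 6.00, 6.37 and 6.27 with ECP and at 6.00, 6.49, 6.19, 5.70 and 6.10 in the control arrays. Of the 5 ECP arrays 4 exceeded the control median, yet the highest array was control replicate 2. The difference was 0.19 (SE 0.13). Cd209a was lowest in control replicate 4, the array in which Flt3, Fscn1, Cd80 and Cd86 were highest, and without that array the difference was 0.09. Without control replicates 1, 4 and 5, those with raised acinar markers, it was -0.05.

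Siglech, a sialic acid-binding receptor of plasmacytoid dendritic cells, varied least. Its level was 5.47, 5.57, 5.61, 5.68 and 5.76 with ECP and 5.76, 5.62, 5.67, 5.66 and 5.50 in the controls, so the 10 arrays spanned 0.29 log2 units. Means were 5.62 ± 0.11 and 5.64 ± 0.10 (SD, n = 5 each), and the difference of -0.02 (SE 0.07) had a 95% interval of 0.88-fold to 1.10-fold, the narrowest among the members. Control replicate 4 was in the middle of its range (5.66), and ECP replicate 1 was the lowest array. By mean level Siglech was at percentile 29.9 of all genes, beside 29.7 for Cd80 and 29.9 for Cd86. Whether the Siglech level lay above background was not tested.

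The mature genes had the widest spread. Fscn1, which codes for the actin-bundling protein fascin of mature dendritic cell processes, was at 7.27, 7.08, 6.85, 6.89 and 7.02 with ECP and at 6.17, 6.51, 6.90, 8.17 and 6.71 in the control arrays. The ECP arrays were tightly grouped, while the controls ran from the lowest to the highest value of all 10 arrays, with SDs of 0.17 and 0.76. The difference was 0.13 (SE 0.29, 95% interval -0.51 to 0.77). Without control replicate 4 it was 0.45 (limma adjusted p = 0.581), where ECP replicates 1, 2 and 5 lay above the 4 remaining controls and replicates 3 and 4 just under control replicate 3. Without control replicate 1 it was -0.05.

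Cd80 and Cd86 code for the B7 ligands that engage CD28, which activates T cells, and CTLA-4, which restrains them. Cd80 was at 6.23, 5.43, 5.26, 5.99 and 5.50 with ECP and at 5.26, 5.61, 5.73, 6.31 and 4.85 in the control arrays. Cd86 was at 5.98, 5.42, 5.11, 5.83 and 5.68 with ECP and at 5.29, 5.83, 5.62, 6.55 and 5.03 in the control arrays. For both genes control replicate 4 was the highest array and control replicate 5 the lowest, with ECP replicate 1 second. Differences were 0.13 (SE 0.26) for Cd80 and -0.06 (SE 0.26) for Cd86. Their intervals, 0.74-fold to 1.61-fold and 0.65-fold to 1.41-fold, were among the widest of the members. Leaving out control replicate 4 gave 0.32 for Cd80 and 0.16 for Cd86. Leaving out control replicate 5 gave -0.05 and -0.22.

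**Figure D2:**
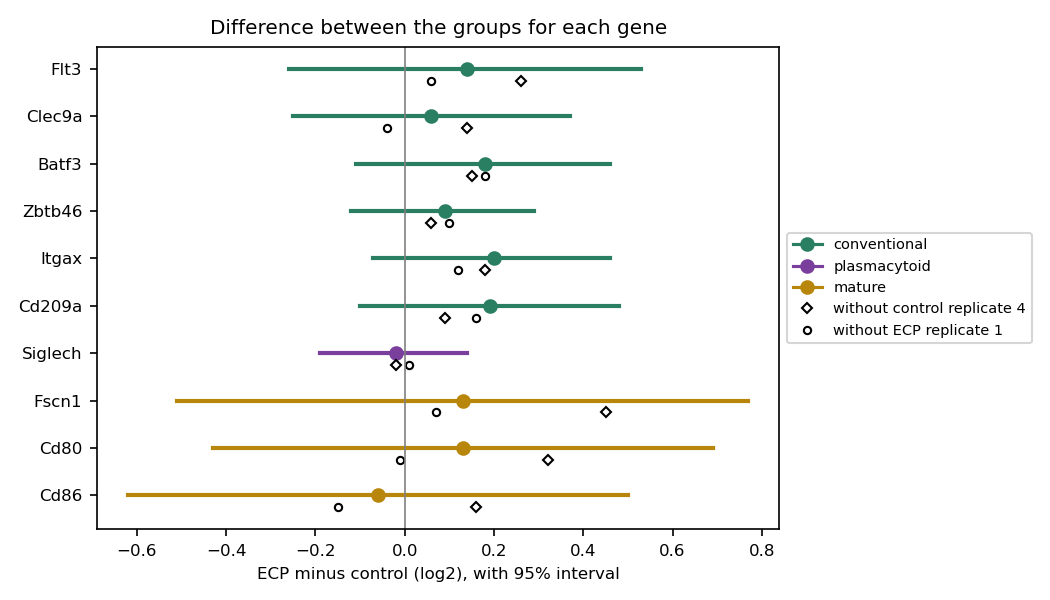
Difference between the groups (ECP minus control, log2) for each gene with its 95% interval from limma (filled points and lines, colour by subset), and the same difference without control replicate 4 (open diamonds) or ECP replicate 1 (open circles). All 10 intervals include 0, that of Siglech is the narrowest, and leaving out control replicate 4 moves Fscn1 from 0.13 to 0.45.

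Of the 45 pairs of members, 1 was correlated across arrays after adjustment, namely Cd80 and Cd86. These were ordered nearly alike over the 10 arrays, with Pearson r = 0.92 (permutation p = 0.00015, adjusted p = 0.00675 over the 45 pairs of members) and Spearman rho = 0.96 (permutation p = 0.00011, adjusted p = 0.00495). With the arrays farthest from the Cd80 median left out (control replicates 4 and 5), r was 0.88, and it was 0.95 after the group means were subtracted. Of the other pairs 4 had an unadjusted permutation p under 0.05 and 0 an adjusted one. Fscn1 and Cd86 had r = 0.74, with 0.39 without control replicate 4 alone and 0.29 without control replicates 1 and 4. Fscn1 and Cd80 had r = 0.68, with 0.51 without control replicate 4 alone and 0.5 without both arrays. Flt3 and Fscn1 had r = 0.70, with 0.64 without control replicate 4 alone and 0.14 without both arrays. Flt3 and Clec9a had r = 0.66, with 0.59 without control replicate 4 alone and 0.64 without both arrays. The 2 arrays left out were those farthest from the median of the first gene named, which narrows its range. Over all 45 pairs 28 were positive and 17 negative, the lowest being Flt3 with Siglech at -0.57. Batf3 and Clec9a, both of the type 1 branch, were at r = -0.11.

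**Figure D3:**
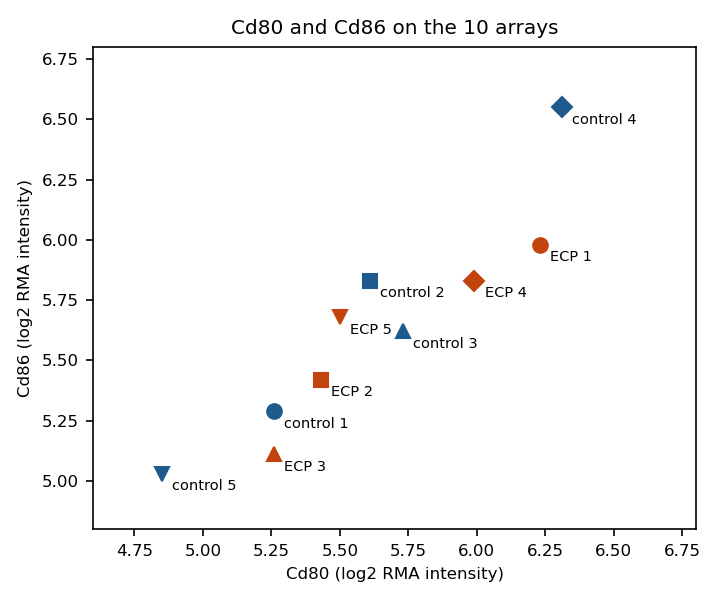
Cd80 (x axis) and Cd86 (y axis) on each of the 10 arrays, both as log2 RMA intensity (blue, control; orange, ECP; shape by replicate number). The arrays lie along a line from control replicate 5 (4.85 and 5.03) to control replicate 4 (6.31 and 6.55), with ECP and control arrays mixed along it.

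The array that was highest for the mature genes was also high in lymphoid and myeloid markers. Control replicate 4 was the highest of the 10 arrays for 3 of 3 mature genes and 1 of 6 conventional genes (Flt3), and for 15.7% of all genes. It had the highest marker means for B cells (8.46), T cells (7.47, next 6.64), neutrophils (8.21, next 7.41) and follicular dendritic cells (8.16), and its epithelial mean was the lowest (11.83). ECP replicate 1 was among the highest 2 arrays for 7 of 10 members, namely Flt3, Clec9a, Itgax, Cd209a, Fscn1, Cd80 and Cd86. For B cells, T cells and follicular dendritic cells it had the second highest marker mean. Between groups the 9 B cell markers were all lower in the ECP arrays (median difference -0.310), 0 past the threshold. Without control replicate 4 that direction turned, with 7 of the 9 higher and 2 lower (median 0.081). The part of follicles or B cells in the member values was not tested. With both arrays left out, a choice made after the data were seen, all 10 members were higher in the ECP arrays, with a median difference of 0.097 and 0 past the threshold (limma). Fscn1 was then at 0.39, Cd80 and Flt3 at 0.18, Batf3 at 0.16 and Itgax at 0.11. The others were Zbtb46 at 0.08, Cd86 at 0.07, Cd209a at 0.06, Clec9a at 0.04 and Siglech at 0.02. Without control replicates 1 and 4, the arrays with the most acinar signal, all 10 were higher (median 0.103, 0 past the threshold). Both settings leave out control replicate 4, so they are not separate evidence, and the share of all genes higher was not counted in them. Without control replicates 1 and 4 other markers were mostly higher too, with 10 higher and 1 lower for macrophages and monocytes, 7 and 2 for B cells, and 5 and 2 for T cells. Without all 3 controls with raised acinar markers (1, 4 and 5), 7 members were higher and 3 lower (median 0.082, 0 past the threshold). Differences were then 0.36 for Batf3, 0.31 for Fscn1, 0.23 for Clec9a, 0.14 for Itgax, 0.10 for Flt3, 0.06 for Zbtb46 and 0.01 for Cd80. Siglech was at -0.03, Cd209a at -0.05 and Cd86 at -0.12.

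**Figure D4:**
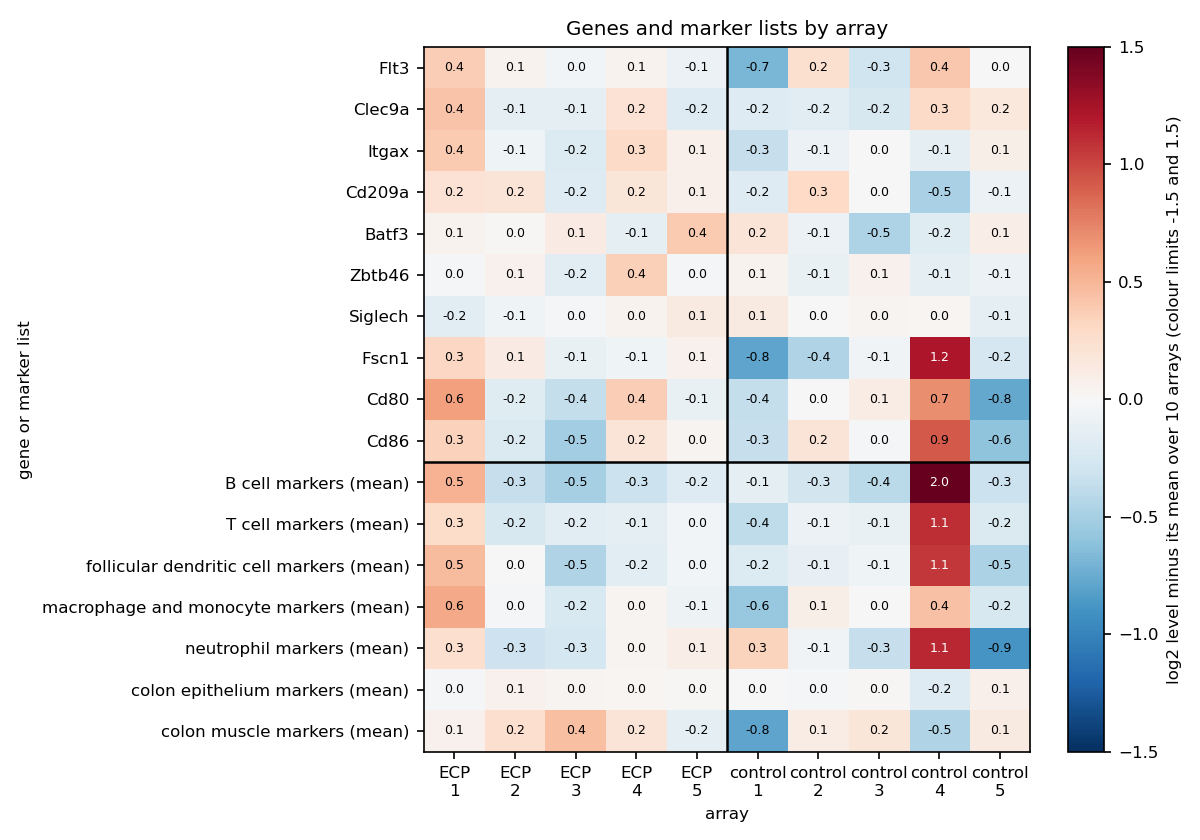
Level of each dendritic cell gene (upper 10 lines) and mean level of marker lists of other cells (lower 7 lines) on each array, as the log2 difference from its mean over the 10 arrays; the colour scale stops short of the most extreme values and the numbers give them. Control replicate 4 is high for Fscn1, Cd80, Cd86 and the B cell, T cell, neutrophil and follicular dendritic cell markers, whereas Siglech stays within 0.29 from its lowest to its highest array.

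Wider lists of dendritic cell genes, chosen from textbook knowledge, held 76 genes of which 72 were measured. None of the 72 passed the threshold, 4 had an unadjusted p under 0.05 beside 5.08% of all genes, and 0 did not overlap between groups. Their median difference was 0.009, near the 0.008 of all genes. Some listed genes had levels above that of Xcr1, a type 1 gene with a mean of 5.55 in the ECP arrays. Means there were 9.37 for Tlr3, 9.11 for Rbpj, 9.36 for Ptprs and 8.8 for Ido1. Such genes need not be private to dendritic cells, and the part of other cells in their values was not tested.

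Of 11 type 1 conventional genes 8 were higher and 3 lower (median 0.045, 0 past the threshold). Without ECP replicate 1 it was 5 higher and 6 lower (median -0.016), and without control replicate 4 it was 10 higher and 1 lower (0.115). Xcr1, the chemokine receptor that defines this branch, was at 5.55 ± 0.18 with ECP and 5.39 ± 0.08 in the controls (SD, n = 5 each), which is 0.17 apart, or 0.10 without ECP replicate 1. The viral RNA sensor gene Tlr3 and the adaptor gene Clnk each differed by 0.13, which for Clnk was 0.04 without control replicate 5 and 0.21 without ECP replicate 4. Clnk was low, with means of 4.17 with ECP and 4.04 in the controls, and whether it lay above background was not tested. The integrin gene Itgae differed by -0.12, or -0.23 without control replicate 1 and 0.01 without control replicate 4. Of 12 type 2 conventional genes 5 were higher and 7 lower (median -0.065, 0 past the threshold), or 7 higher and 5 lower without control replicate 4 (0.084). Mgl2, a lectin of this branch, was at 5.97 ± 0.13 and 5.76 ± 0.18, a difference of 0.22 (SE 0.10; adjusted p from limma 0.957) that ranged from 0.17 to 0.27 when single arrays were left out. The Notch effector gene Rbpj differed by 0.13, the adhesion gene Esam by -0.13 (-0.08 without ECP replicate 4), and the lymphotoxin gene Ltb by -0.34, or -0.10 without control replicate 4.

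Plasmacytoid genes other than Siglech gave 5 higher and 9 lower of 14 measured (median -0.036, 0 past the threshold). Without control replicate 4 that direction turned, with 10 higher and 4 lower (median 0.11). Irf7, the transcription factor for type I interferon in these cells, which other cells also induce in response to interferon, was at 9.83, 9.43, 9.73, 9.75 and 9.36 with ECP and at 8.77, 9.13, 9.37, 9.03 and 9.61 in the control arrays. It differed by 0.44 (SE 0.15, limma adjusted p = 0.800), 0.34 to 0.55 with single arrays left out, and was the largest difference in these lists. The receptor phosphatase gene Ptprs differed by 0.14 and the inhibitory receptor gene Lair1 by 0.25, or 0.09 and 0.10 without control replicate 1. Pacsin1 differed by -0.10, or -0.16 without ECP replicate 1 and -0.01 without control replicate 4. Its means were 4.93 with ECP and 5.03 in the controls, and whether these lay above background was not tested. For Irf7, ECP replicates 1, 3 and 4 lay above every control array and the other 2 within the range of the controls.

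Of 15 measured mature and migratory genes 9 were higher and 6 lower (median 0.043, 0 past the threshold). Without ECP replicate 1 it was 7 higher and 8 lower (median -0.032), and without control replicate 4 it was 12 higher and 3 lower (0.032). Ccr7, the receptor that guides mature dendritic cells to lymph nodes, was at 7.03 ± 0.08 and 7.19 ± 0.21, a difference of -0.16, or -0.10 without control replicate 4. The chemokine gene Ccl22 was at 7.51 in ECP replicate 1 and at 6.52 to 6.72 in the other ECP arrays. It differed by 0.30, or 0.12 without that array. The maturation marker Cd83 differed by -0.14 and the signalling adaptor gene Traf1 by -0.19, and both were near 0 without control replicate 4 (0.01 and 0.03).

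Of 8 growth factor and receptor genes 6 were higher and 2 lower (median 0.014, 0 past the threshold), or 3 higher and 5 lower without control replicate 1 (-0.041). Il3ra, which codes for the interleukin-3 receptor alpha chain, was at 7.34 ± 0.12 and 7.53 ± 0.07, so they differed by -0.19 (SE 0.07, adjusted p from limma 0.890). The growth factor gene Csf2 differed by -0.20, and its receptor genes Csf2ra and Csf2rb by 0.11 and 0.13. Csf2 had means of 4.87 with ECP and 5.08 in the controls, and whether these lay above background was not tested. With single arrays left out Csf2ra ranged from 0.03 (control replicate 1) to 0.19 (control replicate 4), and Csf2rb from 0.01 (control replicate 5) to 0.26 (control replicate 4). Each of these 4 genes overlapped between the groups. Among 6 partners of the B7 ligands and related receptors 2 were higher and 4 lower (median -0.052, 0 past the threshold). Without control replicate 4 it was 5 higher and 1 lower (median 0.146). Cd40lg, the T cell ligand that licenses dendritic cells, differed by -0.36, or -0.18 without control replicate 4. Its means were low (4.11 with ECP, 4.47 in the controls), and whether they lay above background was not tested. Pdcd1, which codes for PD1 itself, differed by 0.08, or 0.02 without control replicate 1 and 0.14 without control replicate 2. Ctla4 differed by 0.15, or 0.44 without control replicate 4 and -0.03 without control replicate 5. Cd28 differed by -0.07, or -0.23 without ECP replicate 1 and 0.10 without control replicate 4.

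Of 6 tolerance-linked genes of gut dendritic cells 5 were higher and 1 lower (median 0.118, 0 past the threshold). Il10 was at 5.42 ± 0.21 and 5.15 ± 0.14, so they differed by 0.27 (SE 0.11, adjusted p from limma 0.937). Aldh1a2, the retinoic acid-making enzyme of gut dendritic cells, differed by 0.26, or 0.09 without ECP replicate 4 (7.14, next ECP array 6.39). Ido1 differed by 0.22, or 0.11 without ECP replicate 1. Tgfb1 differed by 0.02, or -0.08 without control replicate 5 and 0.18 without control replicate 4.

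**Figure D5:**
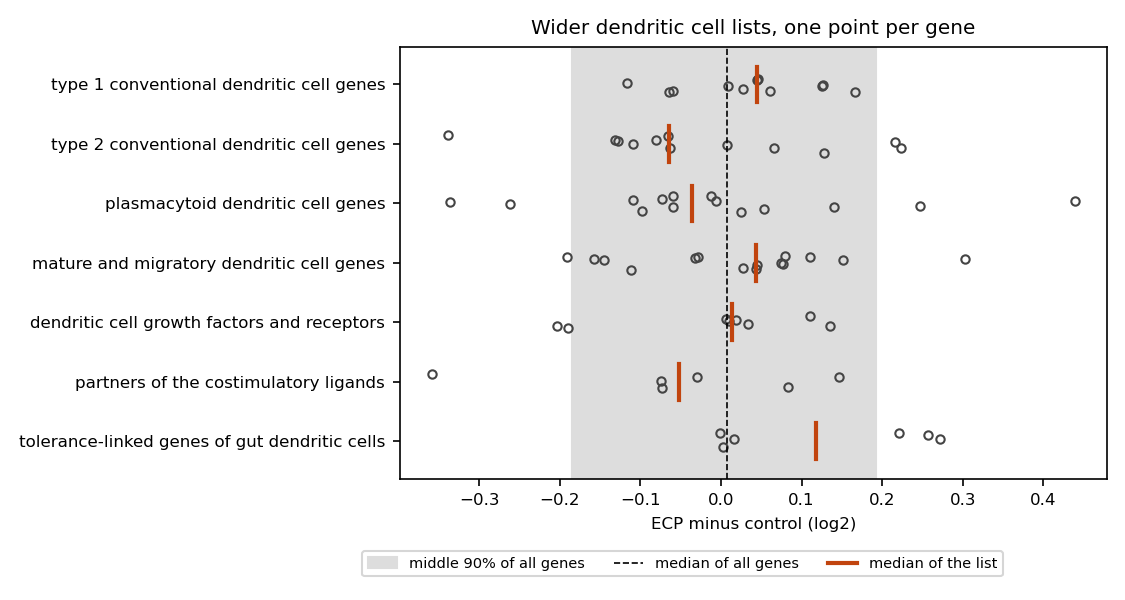
Difference between the groups (ECP minus control, log2) for each measured gene of 7 wider dendritic cell lists (open circles), with the median of each list (orange bars), the median of all genes (dashed line) and the middle 90% of all genes (grey, -0.18 to 0.19). List medians run from -0.065 to 0.118, and Irf7 at 0.44 is the point farthest to the right.

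Genes outside the list whose values were most like those of each member over the 10 arrays were named by Pearson r, as a description among 19495 genes. For Cd80 they were C4a (0.970), Dab2 (0.964) and Snx18 (0.954), and for Cd86 Igfbp4 (0.970), Serpina3n (0.968) and Heg1 (0.957). For Fscn1 they were Zup1 (0.983), Rap1b (0.968) and Arhgef6 (0.960), for Flt3 Ackr3 (0.967), Psmd12 (0.953) and Jak2 (0.941), and for Itgax Tgif1 (0.949), Thap3 (0.941) and Marchf8 (0.938). For Batf3 they were Zic2 (0.950), Spata33 (0.934) and Sox15 (0.903), and for Cd209a Ptn (0.938), Tmem127 (0.934) and Tmem141 (0.932). The nearest genes were less alike for Siglech (P2rx5 0.927, Abhd16a 0.902, Cltrn 0.891), Zbtb46 (Spz1 0.919, Prune1 0.916, Grm5 0.890) and Clec9a (Spock2 0.910, Ciao2a 0.908, Zscan12 0.897). The number of genes with r over 0.9 was 85 for Fscn1, 72 for Cd86, 29 for Cd80 and 28 for Flt3, the 4 members highest in control replicate 4, against 2 each for Clec9a, Zbtb46 and Siglech. Without control replicate 4 the genes named above for these 4 members were at r = 0.91 to 0.96. They had been picked for the highest r on these same arrays, so these values cannot show how far the likeness rests on that array. The counts were not made again without that array.

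Promoter sequences were read for the members held in the RefSeq table (GRCm38.p6), 9 of 10, because Batf3 is itself an AP-1 family factor and the members could be searched for AP-1 sites. In the 250 bases before the annotated start, the heptamer TGANTCA, a loose form of the AP-1 site, was found for Zbtb46, Itgax and Cd80. On either strand it was present in 6.75% of all 32851 promoters in that table. Zbtb46 (TGACTCA) and Itgax (TGAGTCA) match the usual AP-1 site, which has C or G in the middle. Cd80 (TGATTCA) does not, and the share of promoters with the usual site was not counted. The cyclic AMP response element TGACGTCA was found for Fscn1 (1.55% of all). GGAANNGAA, a joint ETS and IRF motif, was found for Cd209a (6.99% of all). GAGGAAGT (PU.1), GAAANNGAA (interferon response) and the kappaB-like string GGGNNTTCC were found for none of the 9, beside 2.44%, 7.13% and 4.98% of all. The last string is shorter than the usual kappaB site and does not match it, so kappaB sites as such were not searched. Fscn1 and the 2 nearer TGANTCA examples are shown as the last 120 bases before the start, with the matched motif in capitals:
Itgax, chr7:128129430-128129549, plus strand: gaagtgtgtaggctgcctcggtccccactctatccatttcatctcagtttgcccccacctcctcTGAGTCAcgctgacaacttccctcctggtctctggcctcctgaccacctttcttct
Cd80, chr16:38458813-38458932, plus strand: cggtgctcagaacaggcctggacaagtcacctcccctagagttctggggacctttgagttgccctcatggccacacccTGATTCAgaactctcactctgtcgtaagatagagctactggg
Fscn1, chr5:142960235-142960354, plus strand: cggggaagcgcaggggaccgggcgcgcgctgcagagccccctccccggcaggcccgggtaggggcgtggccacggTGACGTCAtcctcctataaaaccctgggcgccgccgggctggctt
Counted from the start, the motif lay at -56 to -50 in Itgax, -42 to -36 in Cd80, -45 to -38 in Fscn1 and -61 to -55 in Zbtb46. Across the arrays Itgax and Cd80 were at r = 0.41. It was -0.12 without ECP replicates 1 and 4, the arrays farthest from the Itgax median, and 0.64 without control replicate 4. A match is a description of the letters and not a measured binding site.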

How the data were processed

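Colon RNA from 10 samples (5 per group) was hybridised to Clariom S Mouse arrays. The deposited values are log2 intensities, which the authors made by RMA with the oligo package, per the submitters' processing notes; RMA corrects background, makes the distributions of the arrays alike and summarises probes, so shifts shared by all genes are removed. Versions of these tools and the genome build: not given in the sources used here. Values ran from 2.81 to 13.6, array medians from 6.94 to 6.98, and correlations between arrays from 0.977 to 0.996. Of 22203 probe sets 19572 carried 1 gene symbol in the platform annotation, and 2631 were unnamed and not tested. The probe set with the highest mean stood for a gene, leaving 19505 genes with no filter on level.

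ECP and control arrays were compared with limma 3.58.1 (R 4.3.3; lmFit, eBayes, two-sided, Benjamini-Hochberg over all 19505 genes, threshold 0.05), tested beforehand on simulated data. Single genes also had an exact permutation test over 252 arrangements of the arrays, and pairs of members 100000 permutations (scipy 1.17.1). The members and lists were chosen with earlier results of these data known. Each member was named, as were up to 4 genes per wider list with the smallest unadjusted p and the 3 genes most correlated with each member. List genes without a named probe set were not analysed here. Alternatives covered scaling, filters, probe set choice, limma options, array weights, a replicate block and left-out arrays. Motifs were searched on both strands in 250 bases before each RefSeq start (GRCm38.p6).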

Additional observations from a re-analysis of the deposited data

Results flagged for a closer look

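An array was flagged when its gap to the next array was above 0.71 of its group's range. Over the 10 members, the named genes of the wider lists and the marker means together, 8 of 94 groups of 5 arrays had a flagged array, where chance gives about 5. None of the 10 dendritic cell genes had one. For Fscn1, control replicate 4 (8.17, next control 6.90) was still far from the other controls, and the low control replicate 1 (6.17) widened the range that the rule uses.

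Control replicate 4 stood apart in the mean of B cell markers (8.46, next control 6.32), T cell markers (7.47, next 6.28) and follicular dendritic cell markers (8.16, next 7.03). The same array was apart for Cd40lg (5.17, next 4.38). ECP replicate 1 stood apart for Ccl22 (7.51, next ECP array 6.72), Cd28 (6.82, next 6.13) and Pacsin1 (5.18, next 4.90). ECP replicate 4 stood apart for Aldh1a2 (7.14, next 6.39).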

How the results depend on the processing

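The number of members past the threshold was 0 under every alternative that could be computed, and their median difference stayed positive, from 0.036 (without control replicate 1) to 0.166 (without ECP replicate 3). Over all genes, 0 passed the threshold in the limma comparison as reported (991 at an unadjusted p under 0.05). The count was 1 without the lowest quartile of genes, 7 without genes below the median level and 1 with the trend and robust options. It ranged from 0 to 1 when single arrays were left out (1 without control replicate 3). The quartile filter removed Flt3 and Clec9a, and the median filter removed all 10 members.

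Leaving out single arrays turned the sign of 6 members, with lowest and highest differences of -0.015 and 0.258 for Flt3, -0.039 and 0.138 for Clec9a, -0.061 and 0.012 for Siglech, -0.052 and 0.448 for Fscn1, -0.049 and 0.317 for Cd80, and -0.218 and 0.164 for Cd86. Siglech was at 0.021 and Cd86 at 0.113 without control arrays 1 and 4, and Cd209a at -0.054 without control arrays 1, 4 and 5. Without ECP array 1 and control array 4, chosen after the data were seen, Siglech was at 0.017 and Cd86 at 0.07. The cause of these turns was not tested.

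With the replicate number as a replicate block, the median difference of the members was again 0.128 and 0 genes passed. Same-numbered arrays deviated with correlations of -0.244 to 0.076, and 1 of 10 arrays was closest to its own number, so the numbers were not taken as pairs. With 5 arrays a group, the 95% intervals of the members ran from 0.88-fold to 1.10-fold (Siglech, the narrowest) to 0.70-fold to 1.70-fold (Fscn1, the widest).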
